A study of Mus musculus with 4 samples.

Results

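The 45 genes described here encode proteins of the spliceosomal small nuclear ribonucleoproteins (snRNPs) and a few factors that assemble the U5 particle. They were chosen as a list of symbols by function, with earlier results of these data known. All 45 were found among the 32285 genes of the deposited matrices. The list holds 8 genes of the U5 snRNP, 6 of the U4/U6 snRNP and the tri-snRNP, 7 of the U6 Lsm ring, 10 of the U2 snRNP, 3 of the U1 snRNP, 7 of the Sm ring and 4 U5 assembly factors. Each gene was followed by cell class and by library, with Eftud2 set beside its U5 partners.

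The series compares cerebella of mice labelled Eftud2 cKO, a conditional knockout of Eftud2, with cerebella of wild-type (WT) mice at postnatal day 14 (P14) and postnatal day 10 (P10), by droplet-based single-cell RNA sequencing. There are 4 groups, P14 cKO, P14 WT, P10 cKO and P10 WT, each with 1 library. The title of the series places the loss of Eftud2 in Purkinje cells, but the labels used here name no Cre driver, no deleted exon, no sex and no number of animals per library, and no allele or agent beside the Eftud2 genotype. No cell of any library passed the marker gate for Purkinje cells, which allows a share of cells that pass this gate of up to 0.0485% in P14 cKO, 0.0201% in P14 WT, 0.0465% in P10 cKO and 0.0218% in P10 WT. It sets no limit on Purkinje cells among those that passed no gate, and 1 cell of P14 WT lay near this one.

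The spliceosome removes introns from transcripts and is built on each intron from snRNPs, particles of a small nuclear RNA and proteins. U1 binds the start of the intron, U2 with its SF3A and SF3B proteins binds the branch site, and U4, U5 and U6 join as a preformed tri-snRNP, from which U1 and U4 are then released. A ring of Sm proteins sits on the U1, U2, U4 and U5 RNAs, a ring of Lsm proteins sits on the U6 RNA, and Eftud2 encodes the GTPase of U5 that acts in activating and in taking apart the spliceosome. In the young cerebellum, granule cell progenitors divide in the outer layer and then leave the cycle to become granule neurons, the most numerous neurons of the brain.

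The libraries kept 6183, 14923, 6454 and 13770 cells in P14 cKO, P14 WT, P10 cKO and P10 WT, with medians of 12239, 7712, 10903.5 and 8330 unique molecular identifiers (UMIs, counts of captured transcripts) per cell. Between 54.0% and 60.1% of cells passed the gate of a class, and 10 classes had at least 20 cells in each library. A class name below stands for the cells that passed a gate of marker genes, not for a published annotation. Any 2 libraries shared 12 to 83 cell barcodes. The P10 cKO library carried 0.521 CPM of Xist and 106 CPM of Uty (CPM, UMIs scaled to a common total), whereas the other 3 libraries carried 891 to 1220 of Xist and 0.00691 to 0.0292 of Uty, and the P10 WT matrix was written by Cell Ranger 5.0.0, the P10 cKO matrix by 7.0.1 and both P14 matrices by 7.1.0. At P10 the genotype, the sex-linked RNA and the software version therefore cannot be told apart.

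Levels are in CPM for every class and library, and levels of different genes were not compared. The class comparison used edgeR's quasi-likelihood test on UMI sums of 10 classes in 4 libraries, with the library as a block and granule neurons as the class all others were set against. A gene was called when its adjusted p was at most 0.05 over the 15844 genes tested, which included all 45 members. The block takes out what a library shares over its classes. The p-values rest on how class differences vary between libraries, with the spread shared over all 10 classes. The 4 libraries differ in age and genotype, so that variation holds both.

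Granule cell progenitors carried more snRNP protein RNA than granule neurons in every snRNP group. Of the 45 members, 37 rose and 0 fell in progenitors, against 28.2% of all genes higher and 29.3% lower, and the median log2 difference was 0.76 for the members and -0.03 for all genes. The level was above that of granule neurons in 4 of 4 libraries for 41 members, and leaving out 1 library at a time gave 36 to 38 that rose (38 without P10 WT and 37 without P10 cKO). The matching shares of all genes were not counted. Summed over all members it was 7776 ± 1249 CPM in progenitors and 4121 ± 1153 in granule neurons (SD, n = 4 libraries each). The gated progenitors summed to 4017 to 5009 CPM over their own 10 markers, against 364 to 750 for the same markers in granule neurons. These markers formed the gate, 3 of them genes of the cell cycle, so this contrast does not check the class.

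By group, all 7 Sm genes rose (median log2 difference 1.14), all 7 Lsm genes (1.40) and all 6 U4/U6 and tri-snRNP genes (0.90). Of the 10 U2 genes 8 rose (0.60), of the 8 U5 genes 6 (0.53), and of the 3 U1 genes 2 (0.62). Among the 4 U5 assembly factors only Tssc4 rose (group median 0.21). The genes that did not pass the test were Prpf6, Cd2bp2, Sf3b1, Snrpb2, Snrnp70, Aar2, Ecd and Znhit2. Of the 46 other genes of the splicing pathway that were tested, 28 rose and 3 fell with a median of 0.38.

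Among the U5 genes, Eftud2 stood at 81.2, 80.9, 77.2 and 77.2 CPM in progenitors of P14 cKO, P14 WT, P10 cKO and P10 WT, against 38.7, 34.5, 41.3 and 42.3 in granule neurons of the same libraries. Every progenitor value lay far above every neuron value, and the log2 difference was 0.97 (SE 0.13, adjusted p = 5.87e-08). Snrnp40, a WD-repeat protein of U5, stood at 172, 176, 163 and 201 in progenitors, against 73.4, 80.4, 74.4 and 108 in granule neurons. The groups did not overlap either, with a log2 difference of 1.05 (SE 0.10, adjusted p = 1.02e-10).

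The other U5 genes rose less than Eftud2 and Snrnp40. Prpf8, the scaffold of the catalytic centre, stood at 94.0, 84.0, 83.3 and 95.9 CPM in progenitors, against 66.4, 58.0, 56.3 and 65.8 in granule neurons (log2 difference 0.48, SE 0.10). Snrnp200, the helicase that unwinds U4 from U6, stood at 81.3, 76.5, 89.6 and 94.9 in progenitors, against 51.7, 45.8, 53.2 and 71.9 (0.59, SE 0.12). For both genes each progenitor value was above each neuron value, and the adjusted p was 1.19e-04 for Prpf8 and 6.50e-05 for Snrnp200.

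Txnl4a, a thioredoxin-like U5 protein, stood at 102, 117, 88.0 and 130 CPM in progenitors, against 55.5, 70.0, 59.9 and 99.2 in granule neurons (log2 difference 0.59, SE 0.11). Ddx23, the helicase that acts when U6 replaces U1 at the start of the intron, stood at 58.4, 63.1, 67.2 and 72.5 in progenitors, against 40.2, 44.4, 47.6 and 53.5 (0.44, SE 0.11). Each was higher in progenitors within every library, but the Txnl4a values of the classes overlapped across libraries because P10 WT neurons lay above P10 cKO progenitors.

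Prpf6, which bridges U5 to U4/U6, did not pass the test, with 71.6, 61.8, 70.4 and 72.8 CPM in progenitors and 58.2, 60.1, 64.1 and 64.1 in granule neurons (log2 difference 0.12, SE 0.13, adjusted p = 0.458). Nor did Cd2bp2, a U5 protein that leaves before the tri-snRNP forms, with 31.7, 30.6, 23.1 and 35.6 in progenitors and 22.5, 23.1, 19.8 and 30.8 in granule neurons (0.28, SE 0.14, adjusted p = 0.0990). Both were nominally higher in progenitors in 4 of 4 libraries. The U5 genes thus did not share 1 size of difference.

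**Figure D1:**
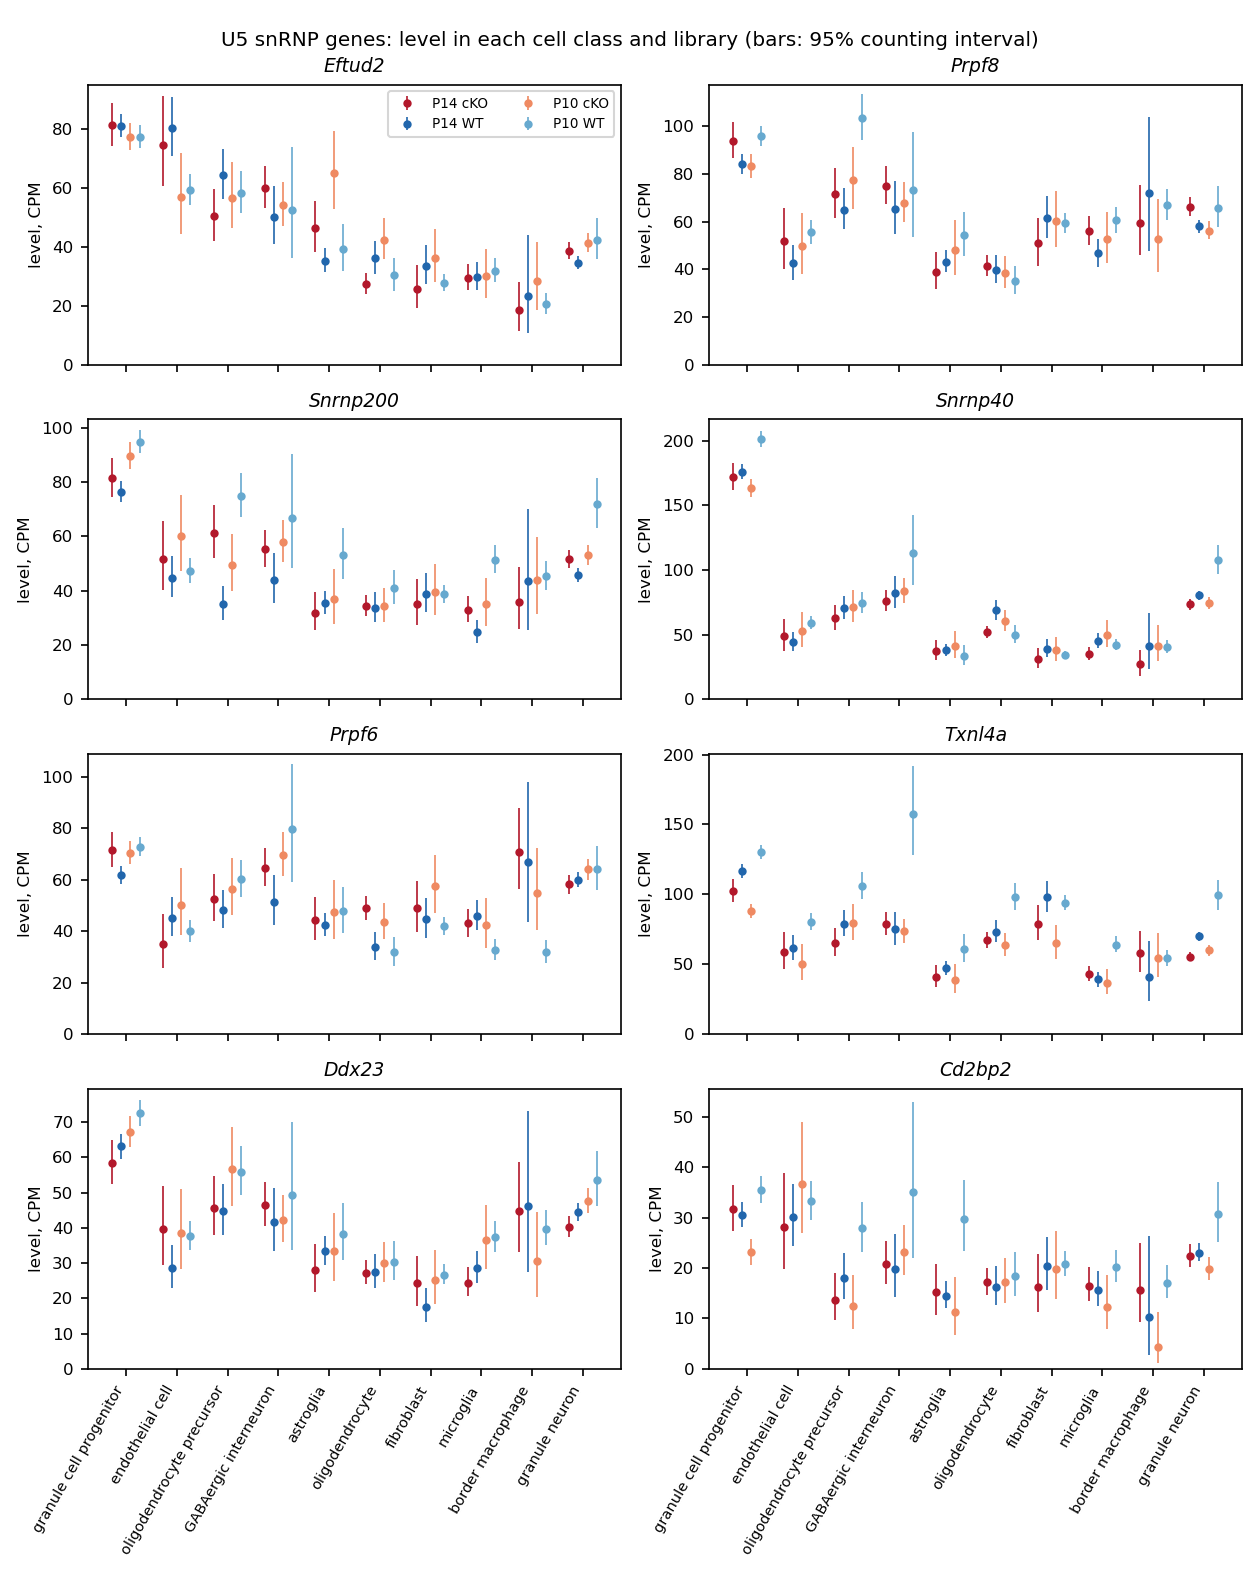
Level of the 8 U5 snRNP genes in CPM (y axis of each panel) in 10 marker-gated cell classes (x axis) and 4 libraries (colours), with bars for the 95% counting interval. Eftud2 sits at 77.2 to 81.2 in progenitors at the left and at 34.5 to 42.3 in granule neurons at the right, while Prpf6 differs little between these classes.

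In the U4/U6 group the largest difference was that of Ppih, a cyclophilin of the U4/U6 particle, with 102, 112, 86.7 and 110 CPM in progenitors, against 27.3, 35.7, 29.8 and 43.7 in granule neurons. Its log2 difference of 1.55 (SE 0.11, adjusted p = 6.08e-14) came from values with no overlap. The smallest was that of Sart1, which helps the tri-snRNP join the spliceosome, with 46.0, 47.4, 42.5 and 57.7 in progenitors, against 33.0, 36.1, 29.6 and 37.4 (0.44, SE 0.10, adjusted p = 4.70e-04). Prpf4 (1.02), Usp39 (0.92), Prpf31 (0.89) and Prpf3 (0.68) lay between.

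Of the Lsm ring, which holds the end of the U6 RNA, Lsm5 had the largest difference of all 45 members. It stood at 185, 148, 141 and 219 CPM in progenitors, against 39.5, 34.6, 31.5 and 77.3 in granule neurons (log2 difference 1.94, SE 0.13, adjusted p = 7.83e-15). Lsm7 had the smallest of the ring, with 172, 150, 157 and 254 in progenitors, against 84.2, 71.4, 77.6 and 168 (0.88, SE 0.10, adjusted p = 3.01e-09). Neurons of P10 WT stood above those of the other libraries for both genes, and for Lsm7 they overlapped the progenitor values.

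Of the U2 genes, Snrpa1, a protein specific to the U2 particle, stood at 146, 157, 133 and 186 CPM in progenitors, against 50.7, 53.9, 45.7 and 78.8 in granule neurons (log2 difference 1.41, SE 0.10, adjusted p = 3.82e-14). Sf3b1, the large SF3B subunit at the branch site, stood at 312, 344, 308 and 386, against 273, 298, 290 and 390, and did not pass the test (0.07, SE 0.08, adjusted p = 0.530). The classes did not overlap for Snrpa1 and overlapped for Sf3b1. Among the other SF3A and SF3B genes the differences ran from 0.38 for Sf3a1 to 1.22 for Sf3b5, which is a gene without introns.

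Of the U1 genes, Snrpa, which binds a stem loop of the U1 RNA, stood at 111, 126, 101 and 143 CPM in progenitors, against 59.9, 76.0, 56.6 and 95.7 in granule neurons (log2 difference 0.70, SE 0.10, adjusted p = 2.28e-07). Snrnp70, the largest U1 protein, stood at 257, 238, 256 and 329, against 206, 219, 237 and 298, which did not pass the test (0.12, SE 0.09, adjusted p = 0.276). Snrpa did not overlap between the classes, and Snrnp70 did.

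In the Sm ring, Snrpf stood at 468, 339, 337 and 616 CPM in progenitors, against 129, 109, 109 and 258 in granule neurons (log2 difference 1.54, SE 0.11, adjusted p = 4.79e-14). Snrpd3 had the smallest difference of the ring, with 200, 217, 210 and 248 in progenitors, against 108, 115, 112 and 173 (0.75, SE 0.10, adjusted p = 4.06e-08). No neuron value reached a progenitor value for either gene. Snrpb and Snrpn encode near-identical proteins, so reads of the pair may be split between them, and Sm and Lsm genes are known for processed copies in the genome, whose reads were not separated here.

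Of the assembly factors, Tssc4, a U5 chaperone, stood at 48.5, 63.6, 47.0 and 70.9 CPM in progenitors, against 32.3, 34.5, 28.0 and 50.6 in granule neurons (log2 difference 0.63, SE 0.16, adjusted p = 0.00103). Aar2, which holds Prpf8 during U5 assembly, stood at 10.4, 12.8, 11.9 and 12, against 11.9, 11.9, 11.5 and 13.8 (-0.12, SE 0.13, adjusted p = 0.469). Aar2 had the lowest difference of the 45 members, and the classes overlapped for both genes.

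Progenitor-gated cells also held more UMIs per cell, with medians of 21839, 13362, 16436 and 11602 in the 4 libraries, against 11281.5, 6485, 8905 and 5752 in granule neurons. With each cell thinned to 2000 UMIs, 33 of the 45 members rose and 0 fell. How many of all genes were called in this run, and in the cycle split below, was not counted. The gate includes 3 genes of the cell cycle. When progenitors were gated on the 7 other markers and split by a UMI of those 3 genes, an alternative added after the data had been seen, the cells without such a UMI numbered 37, 168, 98 and 69, and 24 members were higher than in granule neurons and 1, Sf3b1, was lower (median log2 difference 0.40, all genes -0.26). In mean level, Sf3b1 stood at 312 CPM in these progenitors and 313 in granule neurons.

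Eftud2 averaged 81.7 ± 2.91 CPM in progenitors with a cycle UMI, 69.7 ± 15.6 in those without and 39.2 ± 3.45 in granule neurons (SD, n = 4 libraries each). Lsm5 averaged 173 ± 37.6, 99.8 ± 37.4 and 45.8 ± 21.3 in the same order. Of the 45 members, 35 had a higher mean in progenitors with a cycle UMI than in those without, and 44 had a higher mean in those without than in granule neurons. Snrpa ran the other way, with 123 ± 18.7 with a cycle UMI and 150 ± 33.1 without. The counts of 35 and 44 were not set beside all genes. Cells with a cycle UMI were also deeper (medians of 21545, 14157, 16422.5 and 12647 UMIs) than those without (15022, 9612, 11459 and 8025), and the part of depth in this split was not tested.

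**Figure D2:**
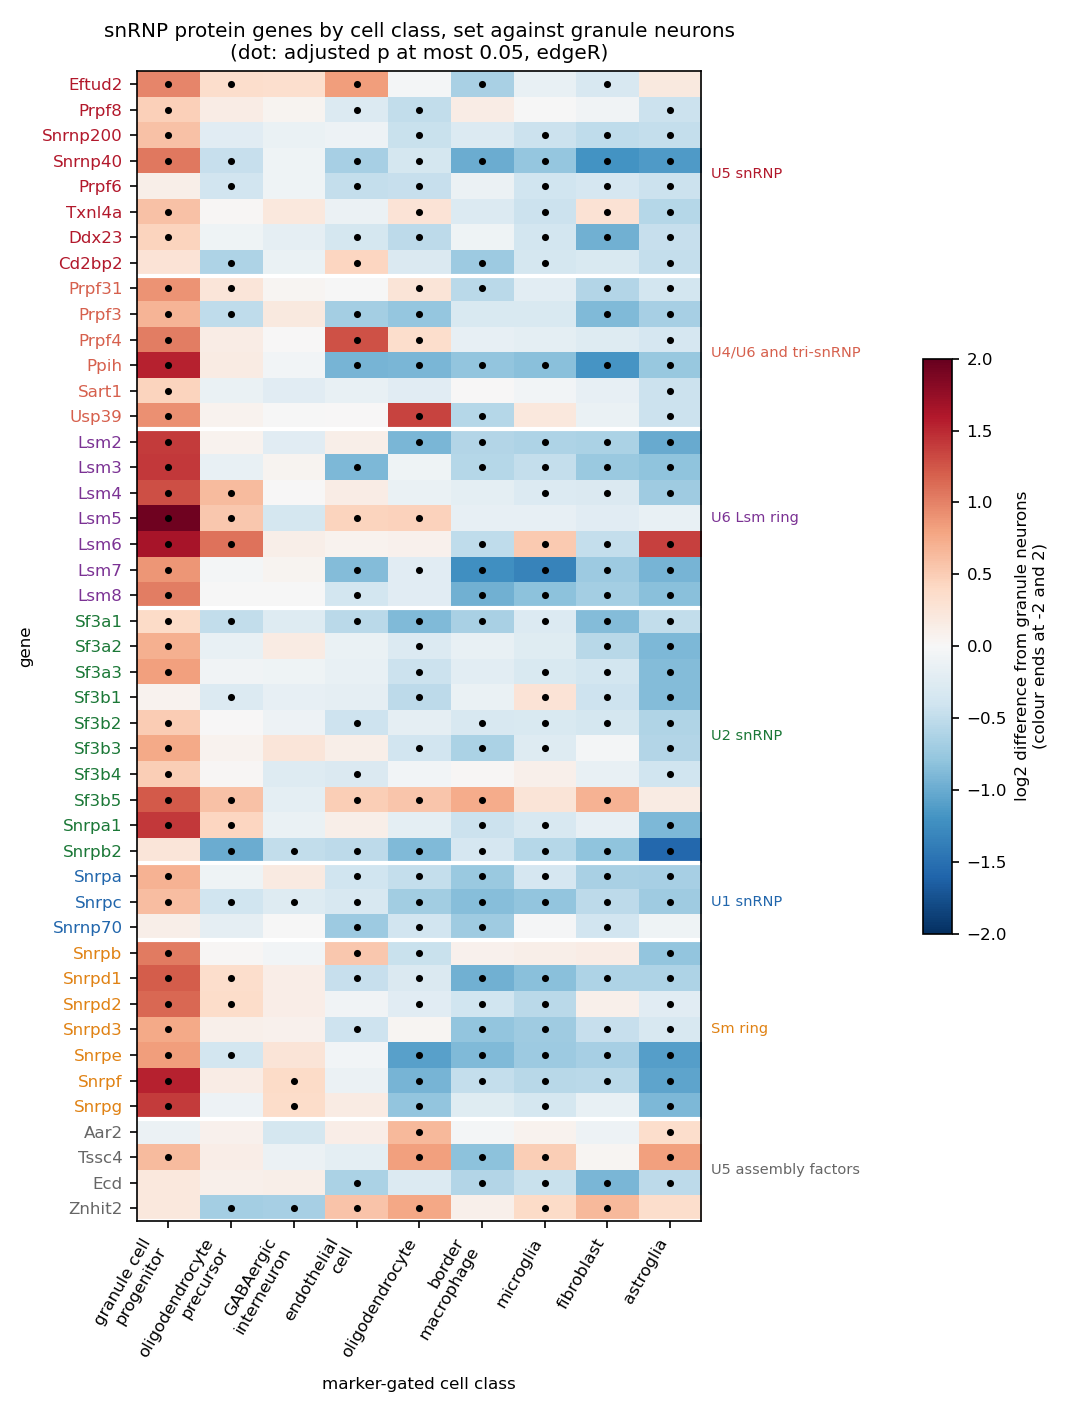
Log2 difference of each of the 45 genes (rows, by group) between a cell class (columns) and granule neurons, with a dot where the adjusted p of edgeR is at most 0.05. The progenitor column is red for nearly all genes (37 called higher), the astroglia column blue (37 called lower), and Lsm6 is red in astroglia.

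Astroglia were the reverse of progenitors. Of the 45 members 37 fell and 3 rose in astroglia relative to granule neurons, against 33.4% of all genes lower and 32.3% higher, with a median log2 difference of -0.58 (all genes -0.05). The sum over all members was 2840 ± 621 CPM in astroglia and 4121 ± 1153 in granule neurons (SD, n = 4 libraries each), and 34 members were lower in 4 of 4 libraries. Members that rose in progenitors and fell in astroglia numbered 32. With cells thinned to 2000 UMIs, or without the library block, 24 members were lower in astroglia. For these counts, and for the order in 4 of 4 libraries, the share of all genes was not counted.

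The falls in astroglia included all 7 Sm genes, all 6 U4/U6 and tri-snRNP genes, 9 of 10 U2 genes, 7 of 8 U5 genes, 5 of 7 Lsm genes, 2 of 3 U1 genes and 1 of 4 assembly factors. Snrpb2, a U2-specific protein, fell by 1.57 on the log2 scale (SE 0.15, adjusted p = 1.90e-11), the most of all members. Snrnp40 stood at 37.3, 38.0, 41.5 and 33.8 CPM in astroglia, against 73.4, 80.4, 74.4 and 108 in granule neurons, a log2 difference of -1.14 (SE 0.11). It lay lower in astroglia of each library, with no overlap.

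The genes that rose in astroglia were Lsm6, Tssc4 and Aar2. Lsm6 stood at 160, 158, 168 and 294 CPM in astroglia, against 65.4, 64.9, 59.2 and 112 in granule neurons, a log2 difference of 1.37 (SE 0.10, adjusted p = 4.84e-14) with no overlap. The other Lsm genes in astroglia differed by -0.14 (Lsm5, not called) to -1.01 (Lsm2). Lsm6 also rose in oligodendrocyte precursors (1.09) and in microglia (0.52), and fell in border macrophages (-0.50) and fibroblasts (-0.47). Tssc4 differed by 0.82 in astroglia (SE 0.17) and Aar2 by 0.35 (SE 0.15).

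Eftud2 did not follow its U5 partners in astroglia. It stood at 46.3, 35.2, 64.9 and 39.1 CPM there, against 38.7, 34.5, 41.3 and 42.3 in granule neurons, so the classes overlapped. Eftud2 did not pass the test in edgeR (log2 difference 0.20, SE 0.14, adjusted p = 0.20), whereas DESeq2 called it higher (0.35, adjusted p = 0.0211). Its 7 partners all fell in astroglia, by 0.43 for Prpf8 and Prpf6 to 1.14 for Snrnp40. Whether Eftud2 and its partners differ in their class difference was not tested.

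The other classes had fewer called members. Fibroblasts had 28 members lower and 3 higher, against 36.5% of all genes lower and 33.4% higher, and microglia had 27 lower and 4 higher, against 39.1% and 34.8%. Border macrophages had 26 lower and 1 higher (37.7% and 30.8%), oligodendrocytes 24 lower and 9 higher (35.7% and 30.7%), and endothelial cells 19 lower and 7 higher (37.4% and 31.6%). Oligodendrocyte precursors had 9 higher and 10 lower (29.8% and 29.7%), and GABAergic interneurons 2 higher and 3 lower (13.4% and 19.2%). The share of members called lower was above that of all genes in fibroblasts, microglia, border macrophages and oligodendrocytes, near it in endothelial cells and below it in precursors and interneurons. The median differences were -0.38 in fibroblasts, -0.31 in microglia, -0.43 in border macrophages, -0.28 in oligodendrocytes, -0.14 in endothelial cells, 0.02 in precursors and -0.01 in interneurons. Without the P10 cKO library the lower members in microglia were 13, and without P14 WT those in interneurons were 0. The balance in precursors and interneurons depended on the scaling. Without TMM factors, which moved the median of all genes from -0.03 to 0.19 in precursors and from -0.08 to 0.06 in interneurons, precursors had 17 members higher and 4 lower and interneurons 11 higher and 0 lower. DESeq2 gave 13 higher and 9 lower in precursors and 11 higher and 2 lower in interneurons, with 14 higher and 16 lower in endothelial cells and 8 higher and 23 lower in microglia. Without TMM factors microglia had 1 higher and 35 lower and oligodendrocytes 5 higher and 31 lower. The median of all genes was then -0.28 in microglia and -0.24 in oligodendrocytes. How many of all genes were called in these alternative runs was not counted, so their counts cannot be read as particular to the members.

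Single genes stood apart from their group in these classes. Prpf4, a WD-repeat protein of U4/U6, rose in endothelial cells (1.27), and Usp39, which helps the tri-snRNP join, rose in oligodendrocytes (1.36). Sf3b5 rose in 6 of the 9 classes set against granule neurons and fell in 0. Lsm5, Lsm6, Znhit2 and Tssc4 rose in 4 each, and of these Lsm6 and Znhit2 fell in 2, Tssc4 in 1 and Lsm5 in 0. Snrpb2 and Snrpc, a zinc-finger U1 protein, fell in 8 of 9 classes and Snrnp40 in 7. Each of the 45 members was called in at least 1 class. The share of all genes so called was not counted, and in microglia alone 34.8% of all genes were higher and 39.1% lower.

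Over the 4 libraries Eftud2 averaged 79.1 ± 2.21 CPM in progenitors, 67.7 ± 11.5 in endothelial cells, 57.3 ± 5.72 in oligodendrocyte precursors, 54.1 ± 4.12 in GABAergic interneurons and 46.4 ± 13.2 in astroglia (SD, n = 4 each). It averaged 39.2 ± 3.45 in granule neurons, 34.0 ± 6.64 in oligodendrocytes, 30.7 ± 4.88 in fibroblasts, 30.3 ± 1.08 in microglia and 22.7 ± 4.35 in border macrophages. Neighbours in this order overlapped in the range of their libraries, with the exception of microglia (29.4 to 31.8) and border macrophages (18.4 to 28.5). Against granule neurons Eftud2 rose in progenitors, endothelial cells (0.84) and oligodendrocyte precursors (0.36), and fell in border macrophages (-0.65) and fibroblasts (-0.33). The calls in progenitors and endothelial cells held under each alternative run. The fibroblast call had an adjusted p of 0.0385 in edgeR and was lost with any 1 library left out (0.0587 to 0.257), after thinning (0.384), without the library block (0.0697), with cells of at least 1000 genes (0.0658), with progenitors outside the cycle (0.0641) and in DESeq2 (0.345). The precursor call was lost without P14 WT (log2 difference 0.18, adjusted p = 0.379 in edgeR), without P14 cKO (0.0697), without the block (0.0628) and without the low-count filter (0.118). The border macrophage call was lost after thinning (log2 difference -0.22, adjusted p = 0.494 in edgeR). In interneurons Eftud2 passed only without TMM factors (0.48) and in DESeq2 (0.45). In astroglia it passed only in DESeq2 (0.35), and in microglia only without TMM factors (-0.35).

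Across the 40 points of a class in a library, which share depth and composition, the log2 level of Eftud2 went with those of Prpf4 (Pearson r = 0.74), Sf3b3 (0.73) and Prpf31 (0.71) most closely. With its 7 U5 partners r ran from 0.30 for Prpf6 through 0.37 for Prpf8 and 0.61 for Snrnp200 to 0.67 for Snrnp40, with a median of 0.51. The medians were 0.60 for the Sm ring and 0.59 for the Lsm ring, and the lowest values were those of Aar2 (0.10) and Znhit2 (-0.15). These are descriptions of points that are not independent.

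The DNA before the start sites of members at both ends of the progenitor difference is shown because these genes moved together to unequal degrees. RefSeq (GRCm38.p6) gave a promoter for 35 of the 45 members, and the window searched was the 150 bases before the start. For each gene the longest stretch of that window without an annotated exon is printed on the strand of the gene, with motif matches in capitals. Stretches under 80 bases were not shown, which passed over Snrpf and Lsm3 with larger differences than Snrpa1. The 4 stretches of genes with the largest differences among the others are those of Lsm5 at chr6:56704711-56704849 (minus strand), Lsm6 at chr8:78821153-78821302 (minus strand), Ppih at chr4:119320547-119320673 (minus strand) and Snrpa1 at chr7:66060186-66060298 (plus strand).
Lsm5: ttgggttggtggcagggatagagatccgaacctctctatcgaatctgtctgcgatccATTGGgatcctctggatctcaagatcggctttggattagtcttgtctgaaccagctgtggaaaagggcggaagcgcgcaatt
Lsm6: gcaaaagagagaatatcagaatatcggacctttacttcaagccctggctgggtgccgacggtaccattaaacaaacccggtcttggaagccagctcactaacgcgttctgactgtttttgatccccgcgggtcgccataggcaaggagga
Ppih: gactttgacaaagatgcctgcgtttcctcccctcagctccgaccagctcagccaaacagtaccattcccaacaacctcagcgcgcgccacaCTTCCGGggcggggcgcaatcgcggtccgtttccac
Snrpa1: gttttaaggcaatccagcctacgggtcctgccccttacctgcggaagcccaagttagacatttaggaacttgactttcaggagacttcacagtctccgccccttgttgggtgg
The 4 stretches of genes with the smallest differences, chosen in the same way, are those of Prpf6 at chr2:181601169-181601315 (plus strand), Snrnp70 at chr7:45395743-45395892 (minus strand), Sf3b1 at chr1:55027482-55027628 (minus strand) and Aar2 at chr2:156547426-156547575 (plus strand).
Prpf6: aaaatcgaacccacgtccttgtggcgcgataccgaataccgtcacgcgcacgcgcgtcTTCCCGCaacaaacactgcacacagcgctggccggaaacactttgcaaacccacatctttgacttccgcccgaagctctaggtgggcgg
Snrnp70: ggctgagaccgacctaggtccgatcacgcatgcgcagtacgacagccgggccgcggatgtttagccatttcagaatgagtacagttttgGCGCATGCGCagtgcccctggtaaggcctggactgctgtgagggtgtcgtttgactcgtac
Sf3b1: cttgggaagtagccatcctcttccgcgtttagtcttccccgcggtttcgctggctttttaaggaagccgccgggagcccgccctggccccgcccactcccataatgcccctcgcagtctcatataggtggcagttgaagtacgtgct
Aar2: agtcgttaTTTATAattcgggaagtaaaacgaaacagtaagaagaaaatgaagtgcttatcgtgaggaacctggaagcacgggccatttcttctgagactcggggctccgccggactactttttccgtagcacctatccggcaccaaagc
The capitals mark matches to the letters of a CCAAT box in Lsm5, an ETS motif in Ppih, an E2F motif in Prpf6, an NRF1 motif in Snrnp70 and a TATA box in Aar2. Each was read on either strand and at any distance from the start within the window, so a match does not show a working site.

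The ETS motif (CCGGAAG, both strands) was in 10 of 35 member windows (28.6%), against 5.68% of the 27025 promoters in the table. These included 5 of 8 U2 windows and 0 of 6 Lsm windows. The search took in annotated exons, which 29 of the 35 member windows held. Of the 10 windows, only those of Ppih, Snrnp200 and Znhit2 had the ETS motif within their longest exon-free stretch, and no U2 window did. The same was not counted for all promoters. The E2F motif (GCGGGAA) was in 4 (11.4%), against 2.63%, and the NRF1 motif (the half-site GCGCA followed by its reverse complement) in 1 (2.86%), against 0.655%. The CCAAT box (CCAAT) was in 6 (17.1%), against 25.3%, and the TATA box (TATAAA) in 2 (5.71%), against 8.08%. No matches of different motifs overlapped. Member windows had a median GC content of 58.7% and 12 CpG dinucleotides, against 54.0% and 4, and the part of base composition in the motif shares was not tested.

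Within a given age the cKO and WT groups have 1 library each, so their ratio has no replicate check, and its interval is an exact 95% interval for counting error only. A gene was read at 50 or more UMIs over both libraries, and called at a change of 1.5-fold with an interval that excludes 0 on the log2 scale, after 0.5 UMI had been added.

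At P14 no snRNP gene reached 1.5-fold over all cells. Of the 45 members 0 were higher and 0 lower, against 12.9% of 18558 genes higher and 7.12% lower, and the median log2 ratio of cKO over WT was -0.16 (all genes 0.01). It was -0.09 with each cell thinned to 2000 UMIs and -0.06 with the mean of each cell's level. The ratio was below 0 for 37 members and above 0 for 8, against 9108 genes below and 9450 above over all 18558. The group medians were -0.07 for U5, -0.16 for U4/U6, -0.21 for the Lsm ring, -0.18 for U2, -0.08 for U1, -0.15 for the Sm ring and -0.13 for the assembly factors. The 46 other pathway genes tested also held 0 calls, with a median of -0.18. Within progenitors the members' median was -0.05 (0.03 after thinning) and within granule neurons -0.09, and progenitors made up 4.58% of P14 cKO cells and 9.36% of P14 WT cells.

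Eftud2 stood at 44.9 CPM in P14 cKO and 47.3 in P14 WT over all cells, a log2 ratio of -0.08 (interval -0.13 to -0.02), and at 55.6 in P10 cKO and 52.1 in P10 WT (0.09, interval 0.04 to 0.15). Both differences were small, and their signs turned under other scalings, to 0.04 at P14 with the mean of each cell's level and to -0.03 at P10 with TMM factors. A captured transcript end outside the deleted part would be counted in cKO cells too, so the level of Eftud2 does not check the labels. The title of the series places the loss in Purkinje cells, and no cell passed the gate of that class. Whether the cells read here carry the deletion is not known from the labels. Within classes at P14 the ratio of Eftud2 ran from -0.40 in oligodendrocytes (interval -0.69 to -0.11) to 0.40 in astroglia (0.07 to 0.71), with 0.01 in progenitors (-0.14 to 0.15) and 0.17 in granule neurons (0.02 to 0.31). With each cell thinned to 2000 UMIs it turned to -0.20 in granule neurons and stood at 0.28 in progenitors and 0.88 in astroglia, and with the mean of each cell's level it was -0.09 in oligodendrocytes.

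Of its U5 partners over all cells, Prpf8 stood at 66.3 CPM in P14 cKO, 63.5 in P14 WT, 66.5 in P10 cKO and 75.2 in P10 WT. Snrnp200 stood at 51.4, 51.1, 64.4 and 70.3 and Snrnp40 at 79.6, 94.7, 99.7 and 112 in the same libraries. Snrnp40 had the lowest P14 ratio of the group (-0.25, interval -0.29 to -0.21). Prpf6 stood at 59.0, 56.3, 66.9 and 55.7 and had the highest P14 ratio (0.07, interval 0.01 to 0.12).

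The remaining U5 genes were lower in cKO than in WT at P14. Txnl4a stood at 68.2 CPM in P14 cKO, 80.6 in P14 WT, 69.6 in P10 cKO and 103 in P10 WT. Ddx23 stood at 40.2, 44.5, 51.9 and 51.8 and Cd2bp2 at 22.3, 23.4, 21.3 and 29.9 in the same order. None of these ratios reached the 1.5-fold threshold at either age, though that of Txnl4a at P10 (-0.56) lay near it.

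In the other groups the P14 extremes were as follows. Ppih stood at 37.3 CPM in P14 cKO and 49.8 in P14 WT (log2 ratio -0.42, interval -0.48 to -0.36), and Usp39 at 26.6 and 28.2 (-0.08). Lsm2, with 68.9 in P14 cKO and 97.1 in P14 WT, had the lowest ratio of all 45 members (-0.50, interval -0.54 to -0.45), and Lsm7 stood at 87.8 and 83.5 (0.07). Lsm2 and Ppih were the genes furthest below WT.

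Among U2 and U1 genes, Snrpa1 stood at 63.7 CPM in P14 cKO and 78.2 in P14 WT (log2 ratio -0.30), and Snrpb2 at 76.4 and 84.1 (-0.14). Snrpa stood at 67.5 and 85.4 (-0.34, interval -0.39 to -0.29), and Snrnp70 at 201 and 205 (-0.03). Sf3b1, which did not pass the progenitor test, stood at 258 and 290 (-0.17). All 10 U2 genes and all 3 U1 genes had a ratio below 0 without reaching the threshold.

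In the Sm ring Snrpf stood at 184 CPM in P14 cKO and 160 in P14 WT, the highest ratio of all members (0.21, interval 0.18 to 0.24), and Snrpb at 181 and 224 (-0.31, interval -0.34 to -0.28). Snrpg (0.19) and Snrpe (0.12) lay above 0 with Snrpf, and Snrpd1, Snrpd2 and Snrpd3 lay below 0 with Snrpb. Of the assembly factors Ecd stood at 30.7 in P14 cKO and 31.5 in P14 WT (-0.04) and Tssc4 at 39.4 and 45.2 (-0.20). The rings therefore held genes on either side of 0.

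**Figure D3:**
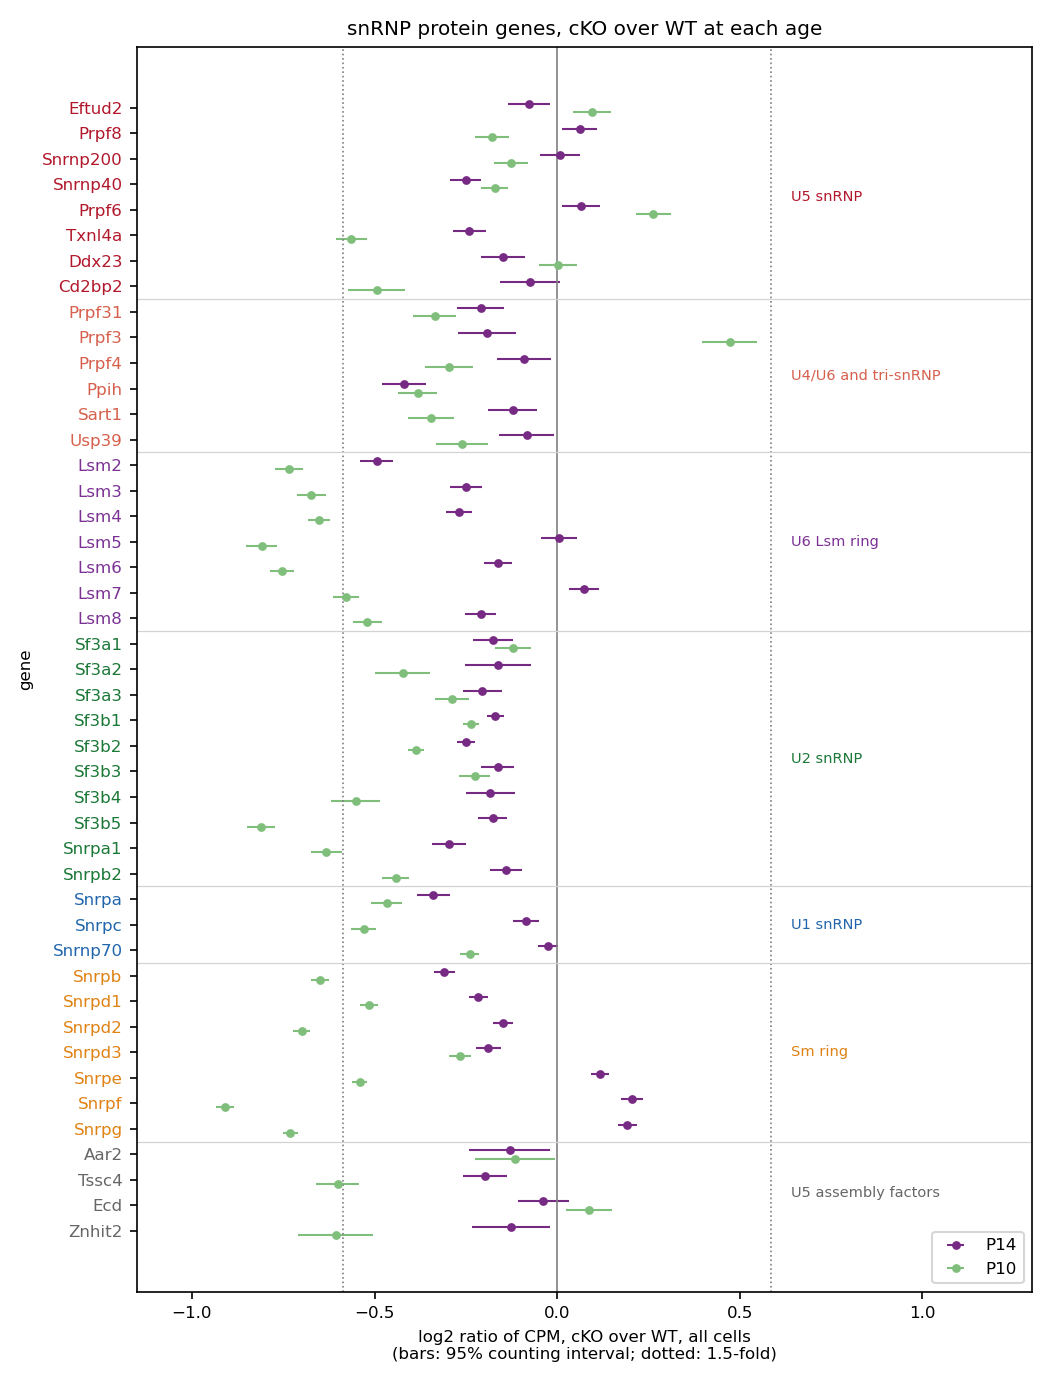
Log2 ratio of CPM, cKO over WT over all cells (x axis), for the 45 genes (y axis, by group) at P14 and P10, with bars for the 95% counting interval and dotted lines at 1.5-fold. All P14 points lie between -0.50 and 0.21 and inside the dotted lines, while 13 P10 points lie beyond the lower line.

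Within classes at P14, 430 pairs of a member and a class were read, of which 10 were higher and 7 lower, against 5.52% and 4.14% of all 100854 pairs. Of the 10 higher pairs 7 were of Snrpf and Snrpg. Snrpf stood at 77.0 CPM in cKO and 42.0 in WT astroglia (log2 ratio 0.88, interval 0.62 to 1.13), at 96.6 and 60.1 in microglia (0.68) and at 210 and 136 in GABAergic interneurons (0.62). Snrpg stood at 117 in cKO and 77.8 in WT astroglia (0.59), at 155 and 90.0 in microglia (0.78), at 235 and 154 in oligodendrocyte precursors (0.61) and at 180 and 82.3 in border macrophages (1.11, interval 0.59 to 1.72). Both were above WT in each of the classes named, and below the threshold in progenitors (0.46 for Snrpf and 0.44 for Snrpg) and granule neurons (0.24 and 0.19).

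The ribosomal protein genes, which are also short and abundant, had a median log2 ratio at P14 of 0.19 in astroglia, 0.17 in microglia, 0.18 in oligodendrocyte precursors, 0.11 in interneurons and 0.05 in border macrophages, against -0.13 over all cells. Their part in the Snrpf and Snrpg values was not tested. The other higher pairs were Snrnp200 in oligodendrocyte precursors (61.3 CPM in cKO and 35.1 in WT, 0.80), Znhit2 in the same class (0.87 on 29 UMIs in cKO and 21 in WT) and Lsm5 in microglia (0.60). The lower pairs were Znhit2 in progenitors (-0.64), Aar2 (-0.67), Sf3b4 (-0.59) and Snrpd1 (-0.60) in oligodendrocytes, Sf3a3 in border macrophages (-0.98), Sart1 in endothelial cells (-0.63) and Sf3a1 in fibroblasts (-0.63). P14 cKO oligodendrocytes had a median of 1705 UMIs per cell and P14 WT oligodendrocytes 24066, and in border macrophages only 25 members had enough UMIs to be read. With the mean of each cell's level in place of sums, 29 pairs were higher and 15 lower.

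At P10 the called members lay mainly in both rings. Over all cells 0 members were higher and 13 lower in cKO than in WT, against 32.6% of 18059 genes higher and 23.9% lower, and the median log2 ratio was -0.44 (all genes 0.03). Of the Lsm ring 5 of 7 were lower (median -0.67), of the Sm ring 4 of 7 (-0.65), of U2 2 of 10 (-0.40) and of the assembly factors 2 of 4 (-0.36). None of the U5 (-0.15), U4/U6 (-0.32) and U1 genes (-0.47) was called. With TMM factors, under which the median of all genes was -0.10, 22 members were lower.

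Snrpf, at 186 CPM in P10 cKO and 350 in P10 WT, had the lowest ratio (-0.91, interval -0.93 to -0.88), which is the gene with the highest ratio at P14. Lsm5 stood at 69.1 and 121 (-0.81), Snrpg at 328 and 544 (-0.73), Lsm2 at 84.8 and 141 (-0.73) and Snrpb at 201 and 315 (-0.65). Snrpa1 stood at 71.4 and 111 (-0.63), Tssc4 at 35.6 and 54.0 (-0.60), and Prpf3, a U4/U6 protein, had the highest ratio (0.47). The P10 WT level was the highest of the 4 libraries for 39 of the 45 members, these genes but Prpf3 among them. The share of all genes highest in P10 WT was not counted, so the 39 cannot be read as particular to the members.

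**Figure D4:**
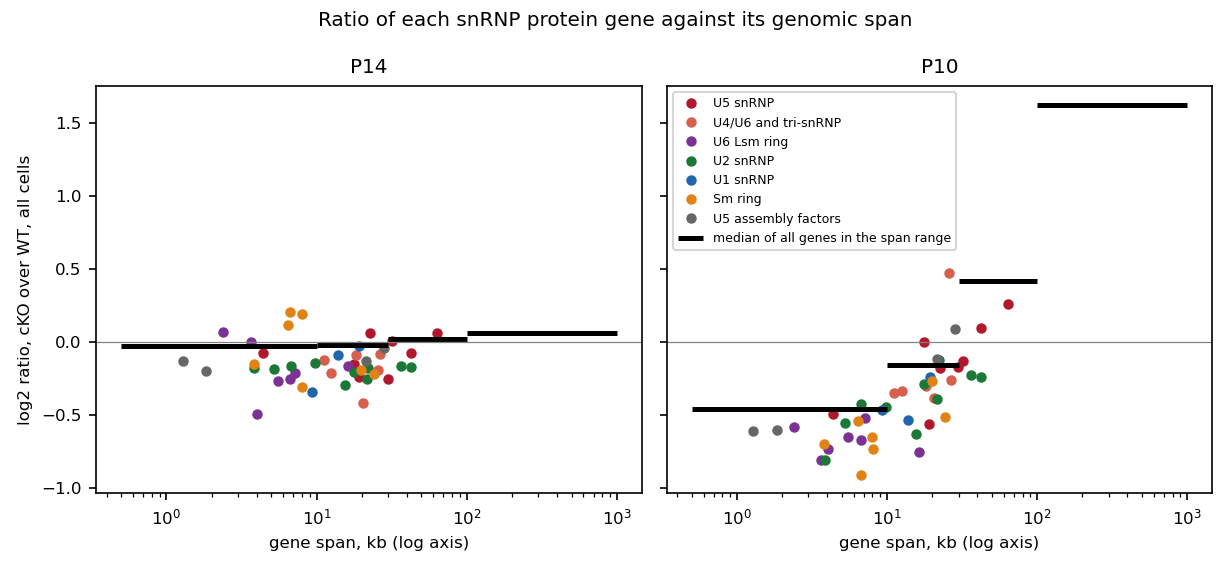
Log2 ratio, cKO over WT over all cells (y axis), of each of the 45 genes against its genomic span in kb (x axis, log axis) at P14 (left) and P10 (right), with black lines for the median of all genes in 4 ranges of span. The P10 medians of all genes climb from -0.46 under 10 kb to 1.63 over 100 kb while the P14 medians stay between -0.03 and 0.06, and no member spans over 100 kb.

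The P10 ratio of all genes moved with their genomic span, with medians of -0.46 under 10 kb, -0.15 from 10 to 30 kb, 0.42 from 30 to 100 kb and 1.63 over 100 kb. The members had medians of -0.61 (19 genes under 10 kb), -0.29 (21 genes from 10 to 30 kb) and -0.13 (5 genes from 30 to 100 kb), and none spans over 100 kb. At P14 the medians of all genes were -0.03, -0.02, 0.02 and 0.06 in the same ranges, and those of the members -0.16, -0.17 and -0.08. Ribosomal protein genes took 8.09% of UMIs in P10 cKO and 14.7% in P10 WT, with a median log2 ratio of -0.84. Of the 14 Lsm and Sm genes 11 span under 10 kb, against 8 of the other 31 members.

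Within classes at P10, 147 of 449 pairs were lower and 3 higher, against 13.3% and 27.1% of all 101637 pairs. Snrpf was lower in all 10 classes, Lsm6 in 9, and Snrpg, Snrpd2 and Lsm3 in 8. The higher pairs were Eftud2 in astroglia (64.9 CPM in P10 cKO and 39.1 in P10 WT, 0.73, interval 0.31 to 1.15), Prpf3 in oligodendrocytes (1.21) and Prpf6 in border macrophages (0.79). Eftud2 in the other classes at P10 ran from -0.07 in microglia to 0.49 in border macrophages, and its ratio was -0.00 in progenitors. With the mean of each cell's level it was 1.19 in astroglia, and after thinning the gene was too low there to be read and stood at -0.79 in microglia and 1.24 in border macrophages.

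**Figure D5:**
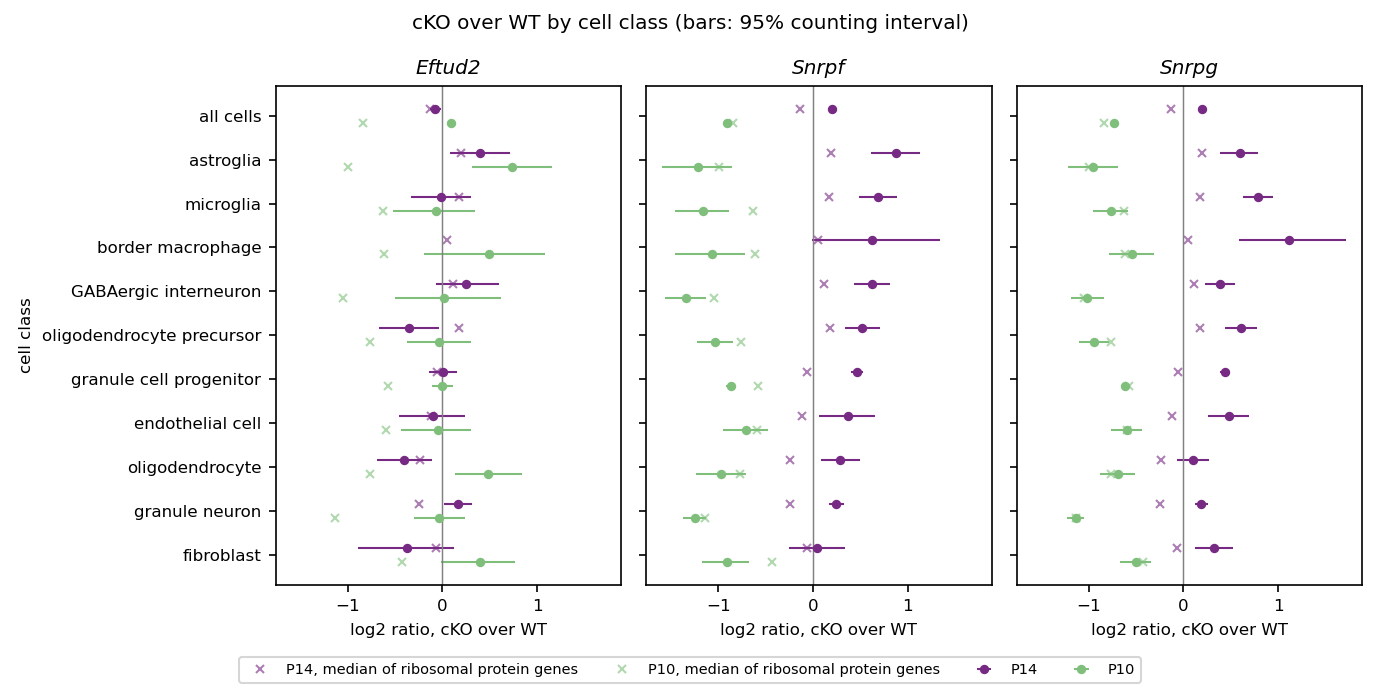
Log2 ratio, cKO over WT (x axis), of Eftud2, Snrpf and Snrpg over all cells and in each class (y axis) at P14 and P10, with bars for the 95% counting interval and crosses for the median of the ribosomal protein genes. Snrpf lies above 0 at P14 and below 0 at P10 in astroglia (0.88 and -1.21), whereas Eftud2 lies above 0 there at both ages (0.40 and 0.73).

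Over both ages together, a fit with terms for age and genotype (edgeR's quasi-likelihood test, 1 residual degree of freedom) called 0 of 20516 genes over all cells (0.0%) and 0 genes in each of the 10 classes at an adjusted p of 0.05. No member had an unadjusted p under 0.05 in any of these 11 edgeR fits, and the smallest was 0.0546 in border macrophages. Over all cells 291 of the 20516 genes had a p under 0.05, so few that 0 of 45 members does not set the members apart. DESeq2 called 28 genes over all cells, 92 in granule neurons and 1 to 8 in the other classes, with 0 members in any fit. Without the low-count filter edgeR called 303 genes in fibroblasts, 129 in microglia, 61 in endothelial cells, 53 in border macrophages, 32 in granule neurons, 7 in interneurons and 3 in astroglia, and 0 over all cells and in the other 3 classes, again with 0 members. On simulated data the all-cells fit recovered 0% of 4-fold changes and the granule neuron fit 0.98%, and the other class fits were not simulated. A count of 0 members in these fits is therefore no sign that the genotypes do not differ.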

How the data were processed

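Cerebella of 4 groups with 1 library each were profiled on the 10x platform. The values the authors deposited are raw UMI counts of every gene in every barcode. Cell Ranger 3.0.2, Seurat 4.1.3 and the build mm10 are named in the submitters' processing notes, while per the file headers Cell Ranger 5.0.0, 7.0.1 and 7.1.0 wrote the matrices. Counting of intronic reads, and use of strand, is not given in the sources used here. Of the members, 12 overlap a gene on the opposite strand and 2 (Txnl4a and Lsm3) one on their own strand in GENCODE vM21 (GRCm38).

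Barcodes with fewer than 500 genes or over 20% mitochondrial UMIs were left out. Scrublet in Scanpy 1.11.5 scored doublets, and since its automatic threshold called 0 in 2 libraries, 1 threshold of 0.232 (top 3% of scores) was used, which removed 125, 472, 139 and 510 cells in P14 cKO, P14 WT, P10 cKO and P10 WT. A cell took a class when at least 4 of that class's markers had a UMI and their share was at least 1.5 times that of any other of the 17 classes. Between 1038 and 2416 cells per library lay near the gate. No cell was in a class by its snRNP genes.

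UMIs were summed per class and library. Classes were compared in edgeR 4.0.16 (R 4.3.3) with a library block, TMM factors, a filterByExpr minimum of 10 counts and Benjamini-Hochberg adjustment over all genes tested. Tested on simulated data, the astroglia comparison recovered 72.1% of 2-fold and 96.5% of 4-fold changes with 7 false calls. The simulations gave all genes the same spread and, apart from the changed genes, no difference between classes or libraries but depth. These rates therefore need not hold for the real data. DESeq2 1.42.0 was the other tool. P-values of the class comparison measure how class differences vary between the 4 libraries, with the spread shared over the 10 classes. What a library shares over its classes is taken out by the block. Those of the genotype fit measure the spread that age and genotype leave between libraries. A library may hold pooled or single animals. Intervals are exact at 95% and cover counting error only, and free RNA in droplets, which adds to every class, was not removed. A count of 0 cells was given an upper limit of 3.

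The total of UMIs kept was 86791562, 136865095, 88363976 and 144806457 in the same order, of which the members held 347408, 596970, 402972 and 929297. Values in every library are given for the U5 genes and for the highest and lowest member of each other group by the P14 ratio and by the progenitor difference. The members, lists, classes and this rule were chosen with earlier results of these data known. Long-read data of the series were not analysed here. Further tools were pandas 2.3.3, SciPy 1.17.1, NumPy 2.4.6 and matplotlib 3.10.9 under Python 3.11.15.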

Additional observations from a re-analysis of the deposited data

Results flagged for a closer look

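In 7 cases a member passed the 1.5-fold threshold in 1 direction at P14 and in the other at P10 in the same class. The values are log2 ratios of cKO over WT from 1 library per group, and the difference between the ages was not tested. How many pairs of all genes turned in this way was not counted, so the 7 cannot be read as particular to the members. Of all pairs, 5.52% were higher and 4.14% lower at P14, and 27.1% and 13.3% at P10. The P10 libraries also differ in sex-linked RNA and software version. Snrpf had 0.62 at P14 and -1.34 at P10 in GABAergic interneurons, 0.88 and -1.21 in astroglia, and 0.68 and -1.16 in microglia. Snrpg had 0.59 at P14 and -0.95 at P10 in astroglia, 0.61 and -0.94 in oligodendrocyte precursors, and 0.78 and -0.76 in microglia. Snrnp200 had 0.80 at P14 and -0.59 at P10 in oligodendrocyte precursors. The ribosomal protein genes had P10 medians of -1.05 in interneurons, -0.99 in astroglia, -0.63 in microglia and -0.76 in oligodendrocyte precursors, and their part in these values was not tested.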

How the results depend on the processing

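Of 664 counts recomputed under alternatives 546 stayed within 1.5 times and 118 moved. Of 4896 differences of a member between classes 4348 stayed on their side of the threshold, 439 lost it, 102 gained it and 7 changed sign. Of 776 member ratios of cKO over WT 578 stayed inside their counting interval. No paired analysis was possible because the labels give each group 1 library and no replicate number that links groups.

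With progenitors outside the cycle, a choice made after seeing the data, 24 members in place of 37 were higher, Sf3b1 reversed to -0.34 and Snrpc to -0.015. These fits carry a median of all genes of -0.26. The mean levels do not show the reversal of Snrpc, with 160 CPM in progenitors without a cycle UMI and 129 in granule neurons. Those of Sf3b1 were nearly equal, at 312 and 313. With each cell thinned to 2000 UMIs, which left 11715 genes to test, the members lower than in granule neurons were 24 in place of 37 in astroglia, 17 in place of 28 in fibroblasts, 12 in place of 27 in microglia, 12 in place of 24 in oligodendrocytes, 9 in place of 19 in endothelial cells, 6 in place of 10 in oligodendrocyte precursors and 0 in place of 3 in interneurons. Thinning also reversed Cd2bp2 in astroglia (0.016), Prpf31 in precursors (-0.018), and Prpf4 (-0.85), Sf3a2 (0.13) and Snrpd2 (0.32) in oligodendrocytes. Without the library block these counts were 24 in astroglia, 13 in fibroblasts, 8 in microglia, 11 in oligodendrocytes, 16 in place of 26 in border macrophages, 9 in endothelial cells, 3 in precursors and 0 in interneurons. With total UMIs and no TMM factors, also added after seeing the data, they were 4 in precursors and 0 in interneurons. The cause of these moves was not tested beyond the smaller number of genes. Calls over all genes were not counted in these runs.

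Leaving out 1 library at a time gave 36 to 38 members higher in progenitors, and 31 to 35 lower in astroglia, 25 to 26 in fibroblasts, 13 to 28 in microglia (13 without P10 cKO), 23 to 29 in border macrophages, 18 to 21 in oligodendrocytes, 14 to 16 in endothelial cells, 8 to 11 in precursors and 0 to 3 in interneurons (0 without P14 WT). Calls over all genes were not counted with a library left out.

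At P10 over all cells, 22 members in place of 13 were lower with TMM factors and likewise 22 with mitochondrial and ribosomal protein genes left out of the totals, when the median of all genes was -0.10. For pairs of a member and a class, the higher ones at P14 were 23 in place of 10 after thinning and 29 with the mean of each cell's level. The lower ones at P14 were 4 in place of 7 with TMM factors and 15 with the mean of each cell's level, which gave 10 in place of 3 higher pairs at P10. Calls over all genes and pairs were not counted under these alternatives. Of the 10 classes in each library, the border macrophages of P14 WT had the fewest cells (49).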
